A study of Mus musculus with 12 samples.

Results

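Maternal-effect genes encode products that the oocyte stores and the embryo needs after fertilisation. Of these genes, 9 that lie outside the cytoplasmic lattice complex are described here: Dppa3, Npm2, Zfp57, Hsf1, Bnc1, Ctcf, Smarca4, Trim24 and Uchl1. They were found in the table of counts by their gene names. Each name matched 1 gene, which gave 9 of 55450 genes, and all 9 were among the 17715 genes with enough counts to be tested.

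The products act at different points on the way from oocyte to embryo. DPPA3 shields the DNA methylation of the maternal genome, and ZFP57 keeps methylation at imprinted regions through its partner TRIM28. NPM2, CTCF and SMARCA4 work on chromatin, as a histone chaperone, an architectural DNA-binding protein and the motor subunit of SWI/SNF remodelling complexes. BNC1, HSF1 and TRIM24 are regulators of transcription, and UCHL1 is an abundant oocyte hydrolase of ubiquitin conjugates.

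The study compared mouse oocytes without Tbpl2, which encodes an oocyte-specific paralogue of the TATA-binding protein, with wild-type (WT) oocytes. The Tbpl2-/- oocytes, labelled Tbp2 null, came from a constitutive null line. Oocytes were picked by hand and selected by size from secondary follicles at postnatal day 14 (P14) and from primary follicles at P7. Each of the 4 groups held 3 pools, of 130 to 214 oocytes in P14 Tbpl2-/-, 144 to 260 in P14 WT, 251 to 340 in P7 Tbpl2-/- and 350 to 400 in P7 WT. The labels give 2.8, 6.2 and 11.3 ng of RNA for P14 Tbpl2-/- pools 1 to 3, and 5.1, 2.6 and 7.3 ng for P14 WT. At P7 they give 3.6, 5.8 and 5.8 ng for Tbpl2-/- pools and 5.0, 8.2 and 5.9 ng for WT. The labels call the pools replicates and name no animals, so p-values measure the spread between pools only.

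Complementary DNA of polyadenylated RNA was made with the SMART-Seq v4 kit and read singly over 50 bases, with 31467610 to 48030724 counts in genes per library. Tbpl2 had 75.3 to 83.3 normalised counts in the P14 Tbpl2-/- libraries against 1900.5 to 2442 in P14 WT, and 75.2 to 117 in P7 Tbpl2-/- against 3027 to 3317 in P7 WT. All 12 oocyte markers were detected in every group, with summed normalised counts of 395189 to 468166 in P14 Tbpl2-/- against 1324720 to 1504830 in P14 WT, and 445368 to 461230 in P7 Tbpl2-/- against 1534320 to 1698960 in P7 WT. The largest parts of these sums were from Zp2, Zp3 and Gdf9, and not all 12 markers were lower. At P14 9 were lower and 1, Figla, was higher, where 27.8% of all tested genes were lower and 29.9% higher. At P7 8 were lower and 2, Ddx4 and Kit, were higher, where 28.9% of all tested genes were lower and 30.5% higher. Of 17 granulosa cell markers, 16 were tested. Their summed normalised counts were 5748 to 6321 in P14 Tbpl2-/- against 6429 to 7099 in P14 WT, and 2327 to 2797 in P7 Tbpl2-/- against 4214 to 5309 in P7 WT, with Krt19 at 0 in both P14 groups. The largest single contribution in each group was from Esr2, with means of 2884 in P14 Tbpl2-/- against 2684 in P14 WT, and 1044 in P7 Tbpl2-/- against 1283.5 in P7 WT. Amh had means of 18.6 against 32.0 at P14, and 4.87 against 59.5 at P7. At P7 12 of the 16 were lower in Tbpl2-/- and 0 higher, and at P14 2 were lower and 2 higher. Of 16 stromal, theca and blood cell markers, 7 were tested, with summed normalised counts of 561 to 760 in P14 Tbpl2-/- against 2282 to 3010 in P14 WT, and 343 to 412 in P7 Tbpl2-/- against 866 to 1374 in P7 WT. The largest single contribution in 3 of the 4 groups was from Pecam1. It had 439 ± 78.6 in P14 Tbpl2-/- against 2491 ± 430 in P14 WT, and 88.1 ± 9.92 in P7 Tbpl2-/- against 845 ± 288 in P7 WT (SD, n = 3). Not all genes of this list were lower. At P14 2 of the 7, Pecam1 and Col3a1, were lower and 1, Dcn, was higher, and at P7 1, Pecam1, was lower and 2, Dcn and Col3a1, were higher. The fibroblast gene Dcn had 25.8, 20.1 and 23.4 normalised counts in P14 Tbpl2-/- pools against 6.44, 4.59 and 3.11 in P14 WT pools, and 59.6, 61.5 and 101 in P7 Tbpl2-/- pools against at most 10.2 in P7 WT pools. The haemoglobin genes Hbb-bs and Hba-a1 were at 0 in all groups but P7 WT, and Adgre1 was at 0 in both WT groups. The endothelial gene Cdh5 was at 0 in P7 Tbpl2-/- and in P14 WT, the group where Pecam1 was highest. Which cells the Pecam1 RNA came from was not tested. The part of these markers in the results was not tested. In pooled oocytes, fewer cells that hold an RNA and less RNA per cell cannot be told apart.

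Because TBPL2 acts at promoters, the sequence just before the start of each gene is shown where a RefSeq entry on GRCm38.p6 was held, which was the case for 6 of the 9 genes. The stretches of 100 bases end at the base before the annotated start. Their positions are chr17:37001063-37001162 (plus strand) for the first of 3 Zfp57 starts in RefSeq, chr7:81992300-81992399 (minus) for Bnc1, chr8:105636438-105636537 (plus) for Ctcf, chr6:37870711-37870810 (plus) for the first of 2 Trim24 starts, chr5:66676021-66676120 (plus) for Uchl1 and chr9:21616069-21616168 (plus) for Smarca4. Capitals mark the bases 40 to 21 before the start, the interval in which a TATA box usually lies.
Zfp57: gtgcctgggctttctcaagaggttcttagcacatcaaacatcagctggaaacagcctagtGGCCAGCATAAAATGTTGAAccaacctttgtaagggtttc
Bnc1: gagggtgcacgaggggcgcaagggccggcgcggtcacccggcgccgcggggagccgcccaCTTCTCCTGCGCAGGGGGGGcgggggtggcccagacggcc
Ctcf: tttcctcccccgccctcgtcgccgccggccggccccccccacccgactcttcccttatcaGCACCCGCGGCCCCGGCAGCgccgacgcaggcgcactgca
Trim24: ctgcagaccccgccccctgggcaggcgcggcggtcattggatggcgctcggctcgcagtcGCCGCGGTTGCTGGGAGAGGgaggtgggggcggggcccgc
Uchl1: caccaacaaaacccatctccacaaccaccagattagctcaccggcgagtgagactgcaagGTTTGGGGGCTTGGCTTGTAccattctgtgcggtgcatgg
Smarca4: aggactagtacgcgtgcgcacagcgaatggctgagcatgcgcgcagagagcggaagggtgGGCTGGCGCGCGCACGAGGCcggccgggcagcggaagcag
Of the 6 stretches, that of the first Zfp57 start was the one with an unbroken run of 7 A or T bases in the marked interval, a length reached in 8.8% of 32851 RefSeq windows from 27025 genes. The windows of the other 2 Zfp57 starts had runs of 3 bases. The longest run was 3 bases in Uchl1, 2 in Bnc1 and Trim24 and 1 in Ctcf and Smarca4, and 64.5% of windows had runs of at most 3. The motif TATAAA, read in the direction of transcription, was in the marked interval of none of the stretches shown and of 1.87% of all windows. On either strand of 300 bases, from 250 before the start to 50 after, it was in the window of the first Zfp57 start, in none of the windows of the other 5 genes or of the other 2 Zfp57 starts, and in 13.6% of all windows. Over the same 300 bases the number of CpG dinucleotides was 50 in Bnc1, 47 in Ctcf, 33 in Smarca4 and at the first Trim24 start, 9 in Uchl1 and 6 at the first Zfp57 start, against a median of 7 over all windows. The second Trim24 start had 1 CpG, and the other Zfp57 starts had 9 and 4. At least 33 CpG were in 8.56% of windows and at least 47 in 1.44%. The GENCODE starts of 3 of these genes differ from the RefSeq starts used here. They are chr5:66676091 for Uchl1, inside the stretch shown, and chr8:105636568 for Ctcf and chr7:81992292 for Bnc1, beyond it. With those starts the marked interval would lie elsewhere. These matches describe the letters of the annotated windows, and the counts of RNA do not show which start was used.

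The level of the 9 genes was set out per kb of the deposited median transcript length. That length depends on which transcripts are annotated, so the order of genes by it is uncertain. It was 790 bases for Ctcf, whose exons cover 4860 bases, and 5879.5 for Smarca4, whose exons cover 6475. In P14 Tbpl2-/-, Uchl1 (45772 ± 3614 normalised counts per kb, SD, n = 3) and Dppa3 (35536 ± 7323) ranked 19 and 35 among the 17715 tested genes, with spreads that overlapped. Zfp57 (22966 ± 1785, rank 98) and Npm2 (18281 ± 2302, rank 168) followed. In P14 WT these 4 genes lay close together, from 40641 ± 5273 per kb for Dppa3 to 51956 ± 3421 for Npm2, with Zfp57 and Uchl1 between them and spreads that overlapped between neighbours.

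The order at P7 was another one. In P7 Tbpl2-/-, Uchl1 (53981 ± 1988 per kb, rank 16) and Dppa3 (34623 ± 7000, rank 36) stood above Npm2 (23395 ± 486, rank 100) and Zfp57 (17518 ± 973, rank 191), with no overlap of spreads. In P7 WT, Uchl1 (107735 ± 25594 per kb), Npm2 (104194 ± 17943) and Dppa3 (100126 ± 20833) ranked 14, 18 and 19, with spreads that overlapped, and Zfp57 had 50935 ± 2763 per kb and rank 49. The other 5 genes stood lower in every group, and in P7 WT they ran from 5424 ± 382 per kb for Ctcf through Hsf1 (2688 ± 417), Bnc1 (2648 ± 444) and Trim24 (1782 ± 252) to Smarca4 (1037 ± 24.2), of which Hsf1 and Bnc1 overlapped. Smarca4 had the lowest mean level per kb of the 9 genes in each of the 4 groups. In P7 Tbpl2-/- its spread (992 ± 61.7) overlapped with that of Bnc1 (1066 ± 64.3). Before division by length, the normalised counts of Smarca4 in P7 WT (6099 ± 142) were above those of Ctcf (4285 ± 302).

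**Figure D1:**
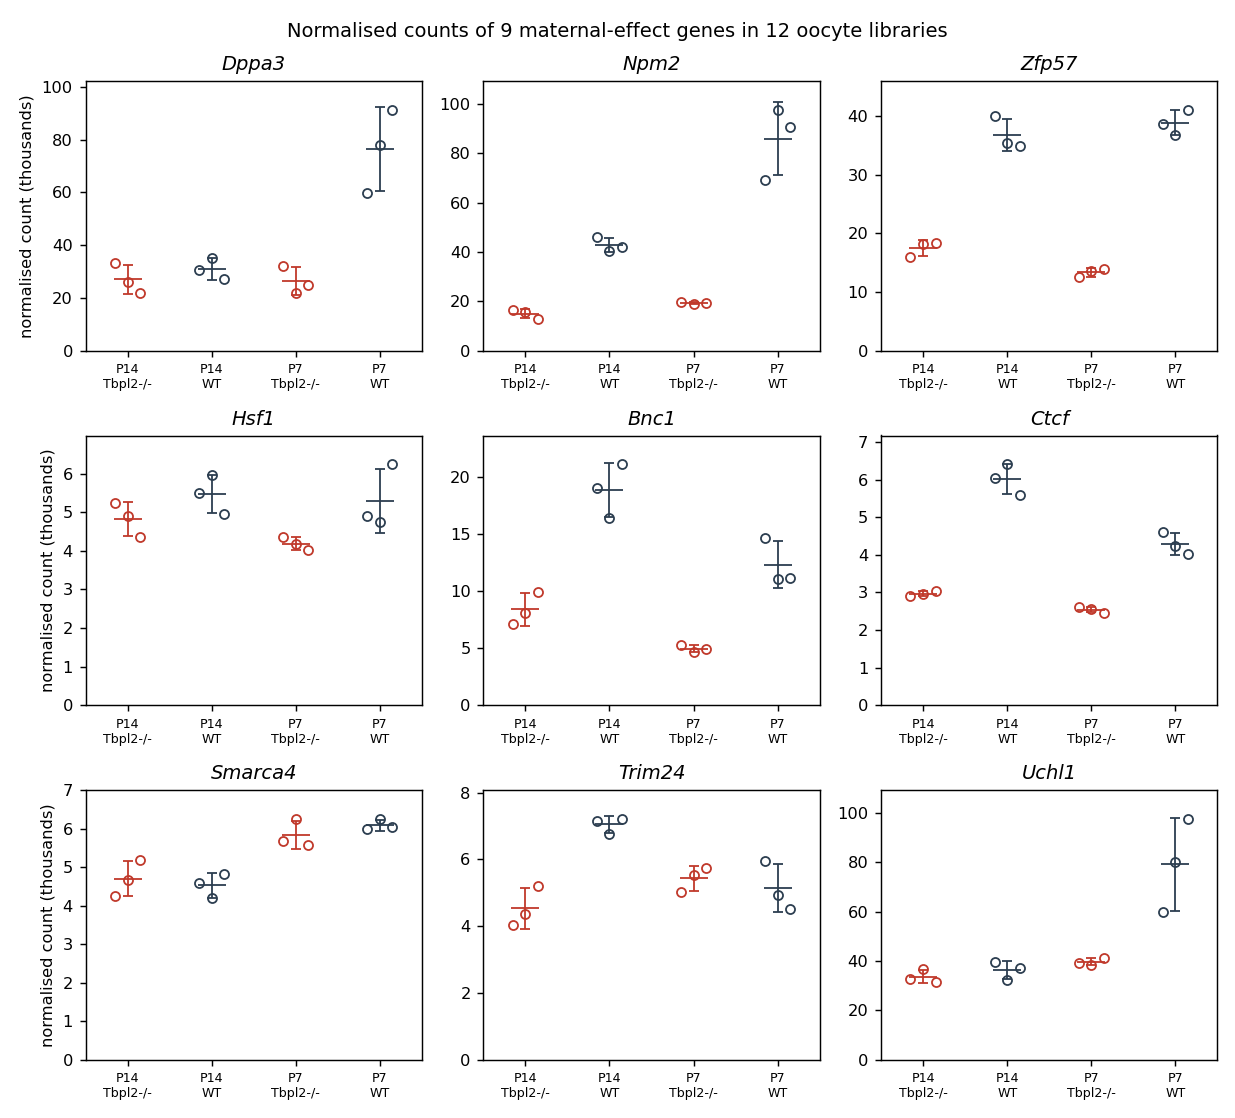
Normalised counts divided by 1000 (vertical axis from 0) of the 9 genes in P14 Tbpl2-/-, P14 WT, P7 Tbpl2-/- and P7 WT oocytes. Open circles are the 3 pools of a group in the order of their numbers, and the bar with whiskers is the mean with SD. Dppa3 and Uchl1 are highest in the 3 P7 WT pools, while Npm2, Zfp57, Bnc1 and Ctcf are lower in Tbpl2-/- pools than in WT pools at both stages.

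To see how the loss of Tbpl2 affected these RNAs, Tbpl2-/- and WT oocytes were compared at each stage. At P14 Npm2, Bnc1, Zfp57, Ctcf and Trim24 fell in Tbpl2-/- oocytes, by 1.49, 1.15, 1.05, 0.996 and 0.61 on the log2 scale. At P7 Npm2, Zfp57, Dppa3, Bnc1, Uchl1, Ctcf and Hsf1 fell, by 2.14, 1.52, 1.51, 1.29, 0.98, 0.73 and 0.32. None of the 9 rose at either stage.

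In numbers, 5 of 9 fell at P14 and 4 missed the threshold (edgeR's quasi-likelihood test, adjusted p of at most 0.05), where 27.8% of all tested genes were lower and 29.9% higher. At P7 7 of 9 fell and 2 missed it, where 28.9% of tested genes were lower and 30.5% higher. A called fall of more than 2-fold was seen for 3 of the 9 at P14 (14.6% of tested genes) and for 4 at P7 (17.1%). The median log2 fold change of the 9 was −0.61 at P14 and −0.98 at P7, against 0.07 and 0.02 over all tested genes. All 3 Tbpl2-/- libraries lay below all 3 WT libraries for the 5 called genes at P14 (31.4% of tested genes) and for the 7 called genes at P7 (31.1%).

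These changes are relative to a scaling that holds the typical gene level, so a loss shared by all RNAs would not be seen. By the labels, RNA per oocyte was 20.6, 47.7 and 52.8 pg in P14 Tbpl2-/- pools against 25.5, 18.1 and 28.1 pg in P14 WT. At P7 it was 12.9, 17.1 and 23.1 pg in Tbpl2-/- pools against 12.5, 23.4 and 14.75 pg in WT. A shared loss was not tested. With library size as the only scaling, all tested genes shifted to a median log2 change of 0.48 at P14 and 0.29 at P7. The split of called genes then became 2962 lower and 8262 higher at P14, in place of 4932 and 5292, and 3697 lower and 7203 higher at P7, in place of 5111 and 5403. Under that scaling 4 of the 9 genes were lower and 1 (Smarca4) higher at P14, and 6 were lower and 1 (Trim24) higher at P7.

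**Figure D2:**
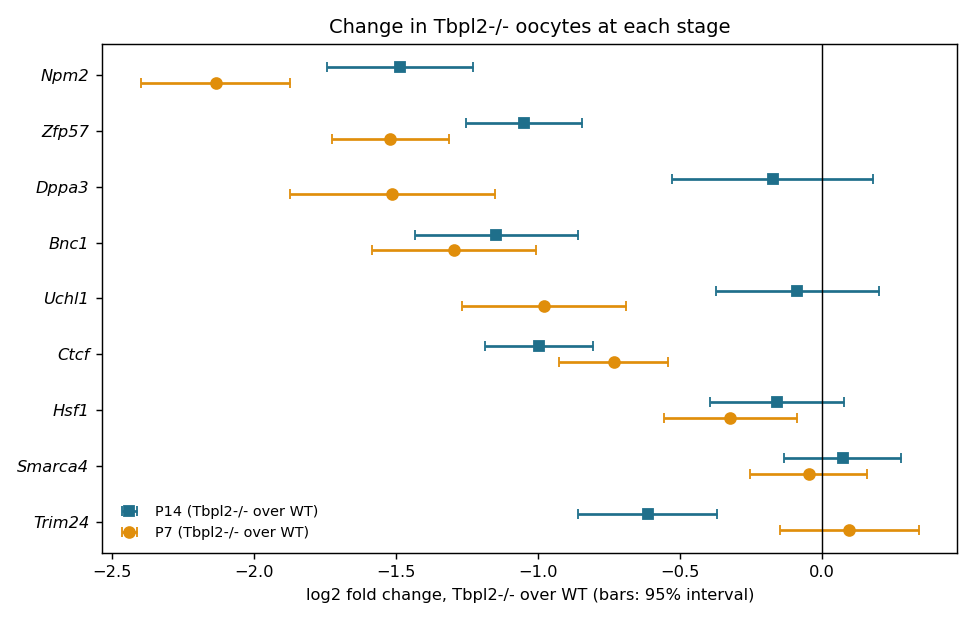
Log2 fold change of Tbpl2-/- over WT oocytes (horizontal axis) for the 9 genes, with squares for P14 and circles for P7. Points are edgeR estimates over 3 pools a group and bars are 95% intervals. Npm2, Zfp57, Bnc1 and Ctcf lie left of 0 at both stages, Dppa3 and Uchl1 at P7, and Trim24 at P14, while the bars of Smarca4 cross 0 at both.

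Among the genes that guard methylation marks, Dppa3 (ENSMUSG00000046323, chr6:122626410-122630272, plus strand, GRCm38), which encodes the protein also called Stella, differed between genotypes at P7. It had 33067, 26142 and 22025 normalised counts in P14 Tbpl2-/- pools against 30503, 35198 and 27203 in P14 WT pools. At P7 it had 32297, 21937 and 24914 in Tbpl2-/- pools against 59625, 78030 and 91232 in WT pools. The 3 P7 WT pools thus stood above the other 9 pools, and the P14 genotypes overlapped. At P14 the log2 fold change was −0.17 (SE 0.18, edgeR adjusted p = 0.433) with a 95% interval of −0.53 to 0.18. At P7 it was −1.51 (SE 0.18, edgeR adjusted p = 5.11e-06), with granulosa markers also lower in those Tbpl2-/- pools. Of its 50-base stretches, 16.5% also occur in Dppa3-ps, Gm15620 or Gm47576, so reads from those stretches were not assigned uniquely.

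Zfp57 (ENSMUSG00000036036, chr17:37001163-37010635, plus strand), for a zinc-finger protein that binds methylated imprinting control regions, was lower at both stages. Its normalised counts were 15932, 18197 and 18371 in P14 Tbpl2-/- pools against 39953, 35330.4 and 34937 in P14 WT pools. At P7 they were 12519, 13581 and 13946 in Tbpl2-/- pools against 38653, 36791 and 40993 in WT pools. Every Tbpl2-/- pool lay far below every WT pool, and pools of 1 group lay close together. The log2 fold change was −1.05 at P14 (SE 0.10, edgeR adjusted p = 4.97e-07) and −1.52 at P7 (SE 0.11, adjusted p = 9.99e-09). The stretch before the first of its 3 annotated starts is the one with the long A and T run shown above, which the other 2 did not have.

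The 16 other genes listed for the protection of methylation at imprints had calls in both directions. At P14 7 (43.8%) were lower, 4 (25%) higher and 5 did not pass, with a median log2 fold change of −0.11, where 27.8% of all tested genes were lower and 29.9% higher. At P7 5 (31.2%) were lower, 4 (25%) higher and 7 did not pass, with a median of −0.14, shares near the 28.9% and 30.5% of all tested genes. Dnmt1, the maintenance methyltransferase, had 49763 ± 10268 normalised counts in P14 Tbpl2-/- against 257648 ± 60754 in P14 WT (SD, n = 3), and Tet3, an oxidase of methylcytosine, had 5824 ± 3577 against 18804 ± 7979. Tet3 was also the gene of this list with the largest P7 fall, 2.78 on the log2 scale (SE 0.51, edgeR adjusted p = 0.000971), with 3680 ± 638 normalised counts in P7 Tbpl2-/- against 25627 ± 3968 in P7 WT. Arid4a, a chromatin factor of imprinting in mouse, fell by 1.42 on the log2 scale at P14. Trim28, the partner of ZFP57, rose, with 11422 ± 1895 normalised counts in P14 Tbpl2-/- against 7205 ± 649 in P14 WT. Its log2 fold change was 0.69 at P14 (SE 0.15, adjusted p = 0.000984) and 0.50 at P7 (SE 0.15, adjusted p = 0.00942). Cbx3, for a heterochromatin protein, and Naa10, for an acetyltransferase, rose at P14 by 0.81 and 0.48. Zfp445, for another zinc-finger protein of imprinted regions, rose at P7 by 0.69 (SE 0.17, adjusted p = 0.00245) and had a log2 fold change of −0.02 at P14 (adjusted p = 0.931).

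Of the genes that work on chromatin, Npm2 (ENSMUSG00000047911, chr14:70647302-70659244, minus strand), for the nucleoplasmin that organises chromatin and nucleoli in oocyte and egg, had the largest fall of the 9 at both stages. It had 16577, 15632 and 12928 normalised counts in P14 Tbpl2-/- pools against 45898, 40456 and 41926 in P14 WT pools. At P7 it had 19578, 18807 and 19378 in Tbpl2-/- pools against 69175, 97499 and 90581 in WT pools. The Tbpl2-/- pools of both stages lay below every WT pool, and P7 WT stood highest. It was 2.80-fold lower at P14 (log2 −1.49, SE 0.13, edgeR adjusted p = 1.46e-07) and 4.40-fold lower at P7 (log2 −2.14, SE 0.13, adjusted p = 3.65e-09). Of its exon bases, 3.76% lie in exons of Xpo7 on the same strand, where reads were not counted for either gene.

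The other genes of the family, Npm1 and Npm3, did not pass at P14 and were lower in Tbpl2-/- at P7. Npm1, for the general nucleolar chaperone, had a log2 fold change of 0.04 at P14 (SE 0.12, edgeR adjusted p = 0.798) and −0.95 at P7 (SE 0.12, adjusted p = 6.1e-06). Npm3 had 0.03 at P14 (SE 0.24, adjusted p = 0.931) and −1.57 at P7 (SE 0.25, adjusted p = 5.66e-05). The difference between the stages passed for both, at 0.99 for Npm1 (SE 0.17, adjusted p = 0.00123) and 1.60 for Npm3 (SE 0.35, adjusted p = 0.00456). Both counts are uncertain, since 24.3% of the 50-base stretches of Npm1 and 25.6% of those of Npm3 are shared with other genes, pseudogenes among them.

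Ctcf (ENSMUSG00000005698, chr8:105636568-105682922, plus strand), for the zinc-finger protein that bounds chromatin loops, had 2909, 2958 and 3041 normalised counts in P14 Tbpl2-/- pools against 6031, 6404 and 5597 in P14 WT pools. In P7 oocytes the counts were 2603, 2571 and 2461 in Tbpl2-/- pools against 4607, 4238 and 4009 in WT pools. Its 6 Tbpl2-/- pools were within a narrow range below all WT pools. The log2 fold change was −0.996 at P14 (SE 0.10, edgeR adjusted p = 4.44e-07) and −0.73 at P7 (SE 0.10, adjusted p = 1.01e-05). Of its exon bases, 7.61% overlap the antisense genes Gm5914 and Agrp, and reads there were not counted for Ctcf if the counting ignored strand. Its paralogue Ctcfl was not tested, with mean normalised counts of 0.231 in Tbpl2-/- and 0.740 in WT at P14, and of 0.337 in Tbpl2-/- and 1.70 in WT at P7.

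CTCF halts loops made by cohesin, the ring complex that also holds sister chromatids together, and 18 of 19 listed genes of cohesin and its regulators were tested. At P14 9 (50%) were lower, 3 (16.7%) higher and 6 did not pass, with a median log2 fold change of −0.24, against 27.8% lower and 29.9% higher of all tested genes. At P7 8 (44.4%) were lower, 3 (16.7%) higher and 7 did not pass, with a median of −0.22, against 28.9% and 30.5%. Stag2, for a cohesin subunit, fell by 2.38 on the log2 scale at P14 (487 ± 95.4 normalised counts in Tbpl2-/- against 2568 ± 379 in WT) and by 1.77 at P7. The acetyltransferase genes Esco1 and Esco2, whose products lock cohesin on DNA, fell at P14 by 1.66 and 1.41. The ring subunit gene Smc3 fell by 1.503 at P7. Smc1b, for a ring subunit of meiotic cohesin, rose at both stages, by 0.56 at P14 and 0.60 at P7. Stag1 rose by 0.37 and Hdac8, for the deacetylase of SMC3, by 0.39 at P14. Stag3, for the meiotic counterpart of STAG1 and STAG2, had 257 ± 24.8 normalised counts in P14 Tbpl2-/- against 574 ± 113 in P14 WT, and 652 ± 29.0 in P7 Tbpl2-/- against 352 ± 94.1 in P7 WT. Its change in P14 differed from that in P7 by −2.05 on the log2 scale (SE 0.27, edgeR adjusted p = 0.000281).

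Smarca4 (ENSMUSG00000032187, chr9:21616169-21704230, plus strand), for the ATPase BRG1 that the embryo needs to start its own transcription, did not pass at either stage. It had 4261, 4673 and 5187 normalised counts in P14 Tbpl2-/- pools against 4592, 4192 and 4827 in P14 WT pools. Its P7 counts were 5678, 6248 and 5575 in Tbpl2-/- pools against 5993, 6259.9 and 6043 in WT pools. The genotypes overlapped at each stage. The log2 fold change was 0.07 at P14 (95% interval −0.13 to 0.28, edgeR adjusted p = 0.572) and −0.05 at P7 (−0.25 to 0.16, adjusted p = 0.727), so a change of more than 2-fold lies outside both intervals under this scaling.

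Of 27 listed genes for other SWI/SNF subunits 26 were tested. At P14 6 (23.1%) were lower, 7 (26.9%) higher and 13 did not pass, with a median log2 fold change of −0.01, shares near the 27.8% and 29.9% of all tested genes. At P7 9 (34.6%) were lower, 5 (19.2%) higher and 12 did not pass, with a median of −0.07, where 28.9% of all tested genes were lower and 30.5% higher. Smarca2, for the alternative ATPase BRM, fell by 0.88 on the log2 scale at both stages (6611 ± 384 normalised counts in P14 Tbpl2-/- against 12367 ± 365 in P14 WT). Ss18l1 and Ss18, for interchangeable subunits of the same position, fell at P14 by 2.15 and 2.05, and Ss18 fell by 1.68 at P7. Smarcd2 fell by 0.96 at P14, while its paralogue Smarcd1 rose by 1.32 at P14 and 0.96 at P7. Dpf3 and Bcl7a, for accessory subunits, rose at P14 by 1.21 and 0.98, and Dpf2 rose at P7 by 0.80. Bicra, for a subunit of the non-canonical complex, fell by 1.89 at P7 (SE 0.46, edgeR adjusted p = 0.00402).

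Among the regulators of transcription, Bnc1 (ENSMUSG00000025105, chr7:81966672-81992292, minus strand), for basonuclin, a zinc-finger protein at ribosomal RNA genes and other promoters in oocytes, was lower at both stages. Its normalised counts were 7143, 8102 and 9926 in P14 Tbpl2-/- pools against 18999.6, 16430.4 and 21098 in P14 WT pools. At P7 they were 5270.4, 4677 and 4909.6 in Tbpl2-/- pools against 14685, 11073 and 11147 in WT pools. Every Tbpl2-/- pool of either stage lay below every WT pool. The log2 fold change was −1.15 at P14 (SE 0.15, edgeR adjusted p = 7.2e-06) and −1.29 at P7 (SE 0.15, adjusted p = 1.98e-06). Its paralogue Bnc2 had a log2 fold change of −0.24 at P14 (SE 0.13, adjusted p = 0.111) and −0.20 at P7 (SE 0.13, adjusted p = 0.187).

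Trim24 (ENSMUSG00000029833, chr6:37870811-37966296, plus strand), for a reader of histone marks and cofactor of nuclear receptors, differed between genotypes at P14. It had 4044.5, 4354 and 5219.8 normalised counts in P14 Tbpl2-/- pools against 7161.5, 6768 and 7217 in P14 WT pools. At P7 it had 5027, 5542 and 5734 in Tbpl2-/- pools against 5946, 4949 and 4531 in WT pools. The P14 WT pools stood above all others, and the P7 genotypes overlapped. The log2 fold change was −0.61 at P14 (SE 0.12, edgeR adjusted p = 0.000576) and 0.10 at P7 (95% interval −0.15 to 0.34, adjusted p = 0.519). With library size as the only scaling the P14 value was −0.20 (adjusted p = 0.148) and the P7 value 0.38 (adjusted p = 0.0108). Of the other genes of the family, Trim28 rose at both stages as given above, Trim66 rose by 2.86 at P14 and 2.36 at P7 (204 ± 76.3 normalised counts in P14 Tbpl2-/- against 28.1 ± 19.8 in P14 WT), and Trim33 had 0.43 at P14 (adjusted p = 0.139) and −0.27 at P7 (adjusted p = 0.341).

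Hsf1 (ENSMUSG00000022556, chr15:76477422-76501913, plus strand), for the factor that switches on heat shock genes, showed small differences between genotypes. It had 5232, 4916 and 4363 normalised counts in P14 Tbpl2-/- pools against 5511, 5959 and 4957 in P14 WT pools. Its P7 counts were 4366, 4171 and 4018 in Tbpl2-/- pools against 4892, 4752 and 6240.4 in WT pools. The P14 genotypes overlapped, and the P7 genotypes did not. The P7 log2 fold change was −0.32 (SE 0.12, edgeR adjusted p = 0.0305), and without P7 WT replicate 3 it was −0.19 (adjusted p = 0.178). The call was also lost without P7 Tbpl2-/- replicate 2 (adjusted p = 0.0749) or replicate 3 (adjusted p = 0.0979). At P14 the log2 fold change was −0.16 (95% interval −0.39 to 0.08, adjusted p = 0.277).

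The heat shock proteins are chaperones and their regulators, and 21 of 22 listed genes were tested. At P14 12 (57.1%) were lower, 3 (14.3%) higher and 6 did not pass, with a median log2 fold change of −0.30, against 27.8% lower and 29.9% higher of all tested genes. At P7 11 (52.4%) were lower, 3 (14.3%) higher and 7 did not pass, with a median of −0.42, against 28.9% and 30.5%. Hspa1b, for an inducible HSP70, had 21.5 ± 5.28 normalised counts in P14 Tbpl2-/- against 338 ± 39.5 in P14 WT, and 15.9 ± 2.91 in P7 Tbpl2-/- against 365 ± 76.7 in P7 WT. Its log2 fold change was −3.94 at P14 (SE 0.24, edgeR adjusted p = 3.09e-09) and −4.49 at P7 (SE 0.25, adjusted p = 1.16e-09). Hspa1a is a near-identical copy of it, and counts of uniquely aligned reads are uncertain for both. Hspa1a had 4.02 ± 1.03 normalised counts in P14 Tbpl2-/- against 20.1 ± 7.79 in P14 WT (adjusted p = 0.00235). The small heat shock gene Hspb1 had 4.22 ± 1.32 in P14 Tbpl2-/- against 47.5 ± 18.5 in P14 WT, and 0, 3.18 and 1.05 in P7 Tbpl2-/- pools against 59.3, 51.1 and 59.3 in P7 WT pools. Hspa1l, a related gene at low counts, rose at both stages, with 11.3 ± 3.40 in P14 Tbpl2-/- against 2.57 ± 1.33 in P14 WT, and 8.96 ± 3.96 in P7 Tbpl2-/- against 2.37 ± 0.599 in P7 WT. Hsbp1, for a protein that binds HSF1, and Hspd1, a mitochondrial chaperone gene, rose at P14 by 0.56 and 0.51, and Hspa4l rose by 0.79 at P7. Of the HSF paralogues, Hsf5 fell by 0.68 at P14 and 0.70 at P7, and Hsf2 did not pass, with 0.36 at P14 (SE 0.42, adjusted p = 0.488) and −0.56 at P7 (SE 0.41, adjusted p = 0.268).

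Uchl1 (ENSMUSG00000029223, chr5:66676091-66687234, plus strand), for the ubiquitin hydrolase that in mouse eggs has a part in the block to polyspermy, differed between genotypes at P7. It had 32761, 36657 and 31578 normalised counts in P14 Tbpl2-/- pools against 39419, 32198 and 37074 in P14 WT pools. At P7 it had 39365, 38439.8 and 41305 in Tbpl2-/- pools against 59955, 80192 and 97569 in WT pools. The P7 WT pools stood above all others and were spread widely, with a coefficient of variation of 23.8% against 3.68% in P7 Tbpl2-/-. The P14 genotypes overlapped. The log2 fold change was −0.09 at P14 (95% interval −0.37 to 0.20, edgeR adjusted p = 0.64) and −0.98 at P7 (SE 0.15, adjusted p = 3.5e-05). Of its exon bases, 18.1% overlap the antisense gene Uchl1os, and reads there were not counted for Uchl1 if the counting ignored strand.

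Its paralogue Uchl3 moved in opposite directions at the 2 stages, rising by 0.57 on the log2 scale at P14 (SE 0.14, edgeR adjusted p = 0.0029) and falling at P7 with a log2 fold change of −0.56 (SE 0.14, adjusted p = 0.00296). The difference between these changes was 1.13 (SE 0.20, adjusted p = 0.0015). Uchl5, for the hydrolase at the proteasome, rose by 0.42 at P14 and had 0.14 at P7 (adjusted p = 0.254). Dppa2 and Dppa4, neighbouring genes named with Dppa3 for their expression in pluripotent cells but not related to it in sequence, moved apart. Dppa2 had 408 ± 45.2 normalised counts in P14 Tbpl2-/- against 2139.8 ± 152 in P14 WT, a log2 fold change of −2.37, and fell by 2.02 at P7. Dppa4 had 601 ± 29.0 in P14 Tbpl2-/- against 174 ± 9.31 in P14 WT, a log2 fold change of 1.81, and rose by 1.79 at P7. Shared 50-base stretches made up 29.1% of Dppa2 and 31.3% of Dppa4. Over the 14 tested genes of the list of paralogues and namesakes, 3 (21.4%) were lower, 5 (35.7%) higher and 6 did not pass at P14, with a median of 0.20. Of all tested genes 27.8% were lower and 29.9% higher at P14. At P7 6 (42.9%) of the list were lower, 4 (28.6%) higher and 4 did not pass, with a median of −0.41, against 28.9% lower and 30.5% higher of all tested genes.

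**Figure D3:**
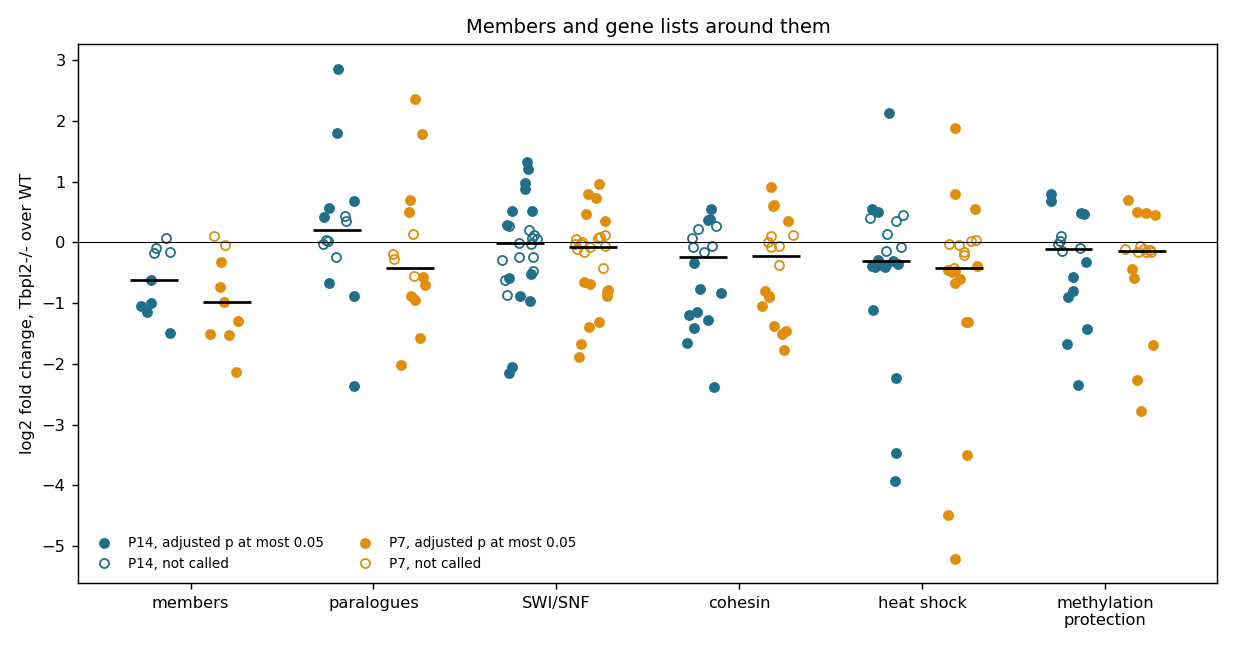
Log2 fold change of Tbpl2-/- over WT oocytes (vertical axis) for the 9 genes and for 5 lists of related genes, with P14 to the left of P7 in each column. Each point is a gene, filled where the edgeR adjusted p was at most 0.05 and open where it was not, and the black bars are medians. The 9 genes have medians of −0.61 and −0.98, and the medians of the 5 lists lie between −0.42 and 0.20.

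To see how the RNAs changed as follicles grew, P14 was compared with P7 within each genotype. In Tbpl2-/- oocytes Bnc1 and Zfp57 rose, by 0.77 and 0.40 on the log2 scale, and Npm2 and Smarca4 fell by 0.35 and 0.30. In WT oocytes Dppa3, Uchl1, Npm2 and Smarca4 fell by 1.30, 1.13, 1.001 and 0.42, and Bnc1, Ctcf and Trim24 rose by 0.62, 0.49 and 0.46. These comparisons share libraries with those between genotypes, so they are not independent of them.

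In Tbpl2-/- oocytes 2 of 9 were lower and 2 higher at P14, where 15.3% of tested genes were lower and 18.4% higher. For WT oocytes the numbers were 4 and 3, where 23.4% of tested genes were lower and 26.8% higher. A called fall of more than 2-fold was seen in Tbpl2-/- for 0 of the 9 (5.05% of tested genes) and in WT for 3, Dppa3, Uchl1 and Npm2 (11.4%). With library size alone the WT calls over all genes were 5168 lower and 3769 higher in place of 4140 and 4749. Granulosa markers differed between the stages too, with 9 of 16 higher and 1 lower at P14 in Tbpl2-/- and 3 higher and 8 lower at P14 in WT, and their part in these results was not tested.

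Dppa3 averaged 27078 ± 5580 normalised counts in P14 Tbpl2-/- and 26383 ± 5334 in P7 Tbpl2-/- (log2 0.04, SE 0.18, edgeR adjusted p = 0.877, 95% interval −0.31 to 0.40). In WT it averaged 30968 ± 4018 at P14 and 76296 ± 15875 at P7 (log2 −1.30, SE 0.18, adjusted p = 5.96e-05). Uchl1 averaged 33665 ± 2658 in P14 Tbpl2-/- and 39703 ± 1462 in P7 Tbpl2-/- (log2 −0.23, SE 0.15, adjusted p = 0.234), and 36230.4 ± 3684 in P14 WT and 79239 ± 18825 in P7 WT (log2 −1.13, SE 0.15, adjusted p = 2.96e-05). For both genes the P7 WT pools stood apart, and the other 9 pools lay within 21937 to 35198 normalised counts for Dppa3 and 31578 to 41305 for Uchl1. Npm2 had a log2 fold change of −0.35 in Tbpl2-/- (SE 0.13, adjusted p = 0.0468) and −1.001 in WT (SE 0.13, adjusted p = 2.75e-05).

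Bnc1 was the gene with the largest rise with age in both genotypes, with 8390.4 ± 1413 normalised counts in P14 Tbpl2-/- and 4952 ± 299 in P7 Tbpl2-/- (log2 0.77, SE 0.15, edgeR adjusted p = 0.000932). In WT it had 18843 ± 2338 at P14 and 12301 ± 2064 at P7 (log2 0.62, SE 0.15, adjusted p = 0.00249). Ctcf rose in WT by 0.49 (SE 0.10, adjusted p = 0.000696) and had a log2 fold change of 0.23 in Tbpl2-/- (SE 0.10, adjusted p = 0.0817). Trim24 rose in WT by 0.46 (SE 0.12, adjusted p = 0.00656), with a log2 fold change of −0.25 in Tbpl2-/- (SE 0.12, adjusted p = 0.128). Zfp57 rose in Tbpl2-/- by 0.40 (SE 0.10, adjusted p = 0.00797) and had −0.08 in WT (SE 0.10, adjusted p = 0.556). Hsf1 did not pass in either genotype, with 0.21 in Tbpl2-/- (adjusted p = 0.181) and 0.05 in WT (adjusted p = 0.748).

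Smarca4 fell with age in WT by 0.42 (SE 0.11, edgeR adjusted p = 0.00376) and in Tbpl2-/- by 0.30 (SE 0.11, adjusted p = 0.0368). The calls of Npm2 and Smarca4 in Tbpl2-/- lay near the limit and did not hold with every library left out. With each library left out in turn, the log2 fold change was −0.43 to −0.24 for Npm2 and −0.37 to −0.24 for Smarca4. The edgeR adjusted p-values were 0.0136 to 0.222 for Npm2 and 0.028 to 0.141 for Smarca4. Both calls were lost without P14 Tbpl2-/- replicate 2 or without any 1 of the P7 Tbpl2-/- replicates. They were also lost without P14 WT replicate 1, which is not part of this comparison. Smarca4 alone was lost without P14 Tbpl2-/- replicate 1 (adjusted p = 0.117), and Npm2 alone without P14 Tbpl2-/- replicate 3 (adjusted p = 0.222) or P14 WT replicate 3 (adjusted p = 0.0539).

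**Figure D4:**
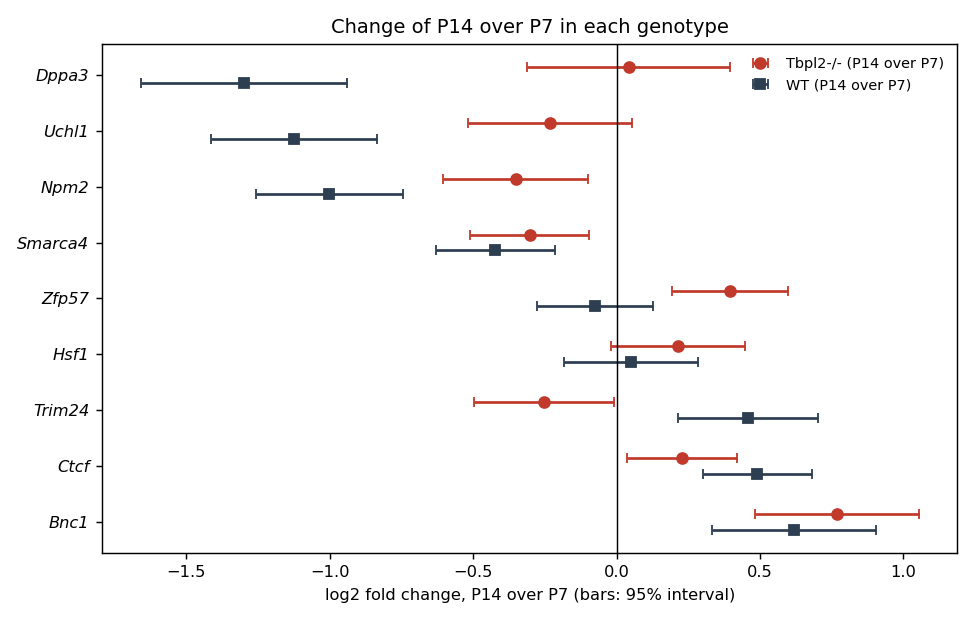
Log2 fold change of P14 over P7 oocytes (horizontal axis) for the 9 genes, with circles for Tbpl2-/- and squares for WT. Points are edgeR estimates over 3 pools a group and bars are 95% intervals. Dppa3 and Uchl1 lie at −1.30 and −1.13 in WT, while their bars cross 0 in Tbpl2-/-, and Bnc1 lies right of 0 in both genotypes.

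Whether the change in Tbpl2-/- oocytes depended on stage was tested by the interaction, the genotype change at P14 minus that at P7. It passed for 5 of the 9 genes. Dppa3 (1.34 on the log2 scale, SE 0.26, edgeR adjusted p = 0.00244), Uchl1 (0.89, SE 0.21, adjusted p = 0.00642), Npm2 (0.65, SE 0.18, adjusted p = 0.0164) and Zfp57 (0.47, SE 0.15, adjusted p = 0.0252) had positive values, which means a smaller fall at P14 than at P7 or none. Trim24 had a negative one (−0.71, SE 0.18, adjusted p = 0.009), with its fall at P14.

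Of all tested genes, 13.6% had a positive and 14.3% a negative interaction that passed, and 8.16% a positive one of more than 2-fold, as Dppa3 had. With library size alone those calls became 3108 positive and 1932 negative, in place of 2416 and 2538, and the same counts of 4 and 1 were obtained for the 9 genes. Bnc1 (0.15, 95% interval −0.25 to 0.55, edgeR adjusted p = 0.627), Ctcf (−0.26, −0.53 to 0.01, adjusted p = 0.166), Hsf1 (0.16, −0.17 to 0.50, adjusted p = 0.501) and Smarca4 (0.12, −0.17 to 0.41, adjusted p = 0.585) did not pass. The Zfp57 call was lost when P14 WT replicate 2, P14 WT replicate 3 or P7 WT replicate 3 was left out, with adjusted p-values of 0.0619, 0.0547 and 0.0573. Of the 16 granulosa markers, 10 also had a positive interaction that passed and 0 a negative one, and their part in these results was not tested.

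To find RNAs that behaved like each of the 9, log2 CPM (counts scaled by library size and TMM factor) were centred on each gene's mean over the 12 libraries, and 6575 genes with a mean above 1000 normalised counts were ranked by the root mean square difference. Dppa3 was most like Cmc1 (difference 0.15) and Snrpd1 (0.15), and Uchl1 most like Pfdn5 (0.09) and Cfl1 (0.11). Npm2 was nearest to Sp110 (0.14) and Mphosph6 (0.18), and Zfp57 to Sgo2a (0.10) and Cebpg (0.11). Bnc1 was nearest to Tent4a (0.09) and Dusp7 (0.10), Ctcf to Baiap2l1 (0.06) and Lrrc57 (0.08), and Trim24 to Riok3 (0.10) and Efcab14 (0.10). Hsf1 was nearest to Cyth2 (0.07) and Bub3 (0.09), and Smarca4 to Synj2bp (0.06) and Foxn3 (0.06). Within the 9, the closest pair was Dppa3 and Uchl1 (0.29) and the farthest Npm2 and Trim24 (0.96). The 12 libraries share groups and scaling, so these values are descriptions.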

How the data were processed

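RNA was measured in 12 libraries of pooled mouse oocytes, and no reads were aligned again. By the submitters' processing notes and the study's methods, base calls came from bcl2fastq 2.17.1.14, reads were trimmed with cutadapt 1.10, spike reads were removed with bowtie2 2.2.8, the remainder was placed on mm10 by STAR 2.7.0f, and htseq-count 0.9.1 counted uniquely aligned reads per gene of Ensembl 96 in union mode, which drops reads that lie in 2 genes. The strand setting is not given in the sources used here. The deposited counts are whole numbers per gene and library, and the deposited normalised counts are a signal, the authors' counts scaled with median-of-ratios size factors of DESeq2 1.22.2. Median transcript lengths are as the authors deposited them. Columns with the authors' group means, fold changes, test statistics and p-values were not used.

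Means and SDs are of normalised counts over 3 libraries. Counts were tested with edgeR 4.0.16 under R 4.3.3 (TMM factors of 0.81 to 1.16, filterByExpr, quasi-likelihood F test, two-sided, Benjamini-Hochberg over 17715 genes), with 4 group means over 12 libraries and 5 contrasts. A gene was called at an adjusted p of at most 0.05, standard errors are the log2 fold change divided by the root of F, and 95% intervals are normal intervals from them. An exact permutation of 3 against 3 libraries cannot go below p = 0.1. Alternatives were DESeq2 1.42.0, its size factors in edgeR, library size alone, no filter, a replicate block, the compared groups only, and each library left out. The edgeR fit was tested on simulated data in which few genes changed, evenly in both directions. Such data cannot check the scaling where many genes change. Members and lists were chosen with earlier results of these data known. Named beside the 9 genes are their paralogues, up to 3 called genes of each list in each direction at P14 and up to 2 at P7 by size of change, and the 2 genes most like each member among those above 1000 normalised counts. Gene positions and shared 50-base stretches come from GENCODE M21 on GRCm38, to which all 55450 identifiers matched, and promoter sequence from RefSeq on GRCm38.p6. No molecular identifiers mark copies of 1 molecule. Replicates of a group correlated at 0.98 to 0.99 in log2 CPM and differed by more than sampling noise, so none was taken as a repeat.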

Additional observations from a re-analysis of the deposited data

Results flagged for a closer look

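For 5 of the 9 genes, the change in Tbpl2-/- oocytes differed between the stages by a test of the difference itself (edgeR's quasi-likelihood test, adjusted over 17715 genes). The difference, the log2 change at P14 minus that at P7, was 1.34 for Dppa3, 0.89 for Uchl1, 0.65 for Npm2, 0.47 for Zfp57 and −0.71 for Trim24. Of all tested genes, 13.6% had a positive and 14.3% a negative difference that passed. The Zfp57 call was lost without P14 WT replicate 2, P14 WT replicate 3 or P7 WT replicate 3 (edgeR adjusted p = 0.0619, 0.0547 and 0.0573). For Dppa3 and Uchl1, the 3 P7 WT pools stood above all other pools, and the P14 genotypes overlapped. For Npm2 and Zfp57, WT pools were above Tbpl2-/- pools at both stages, with a larger distance at P7. For Trim24, the 3 P14 WT pools stood above the rest. At P7 12 of 16 granulosa markers were lower in Tbpl2-/-, and their part in these differences was not tested.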

How the results depend on the processing

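Of the 18 alternatives to the fit (17 for the interaction), DESeq2's size factors and DESeq2's Wald test left the direction and call of the 9 genes as they were in 45 of 45 values each. With library size alone, the log2 fold changes at P14 turned to 0.25 for Dppa3, 0.26 for Hsf1 and 0.33 for Uchl1, that of Smarca4 turned to 0.23 at P7, and that of Hsf1 turned to −0.11 for P14 over P7 in WT. None of these passed. Under that scaling 1 gene of the 9 was higher at P14 (Smarca4, 0.49, adjusted p = 0.000982) and 1 at P7 (Trim24, 0.38, adjusted p = 0.0108), Hsf1 lost its P7 call (−0.04, adjusted p = 0.766), and over all genes 2962 were lower and 8262 higher at P14. The scaling itself moved the median of all tested genes by its own construction, to 0.48 at P14 and 0.29 at P7. Without the filter on low counts, 1 of the 9 fell with age in Tbpl2-/- in place of 2 (Smarca4 was lost, adjusted p = 0.112), and Hsf1 lost its P7 call (adjusted p = 0.0662). With the compared groups only, the stage change of Hsf1 in WT turned to −0.018, and Uchl1 passed in Tbpl2-/- (−0.26, adjusted p = 0.0451).

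With the replicate number as a block, 1 of the 9 fell with age in Tbpl2-/- (Npm2 was lost, adjusted p = 0.0663), and the block moved no other call of the 9 genes. Correlations of deviations from the group mean between same-numbered libraries ran from −0.0916 to 0.23, and 3 of 12 libraries were closest to their own number in the other genotype, so the numbers were not taken as pairs.

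With each library left out in turn, 0 to 2 of the 9 fell with age in Tbpl2-/-, genes lower with age there numbered 1805 to 3049 (lowest without P14 Tbpl2-/- replicate 2), and genes with a negative interaction 1518 to 3243 (lowest without P7 Tbpl2-/- replicate 2, and 1537 without P14 Tbpl2-/- replicate 2). Signs turned for changes that did not pass: Dppa3 in Tbpl2-/- with age (−0.13 to 0.21, negative without P14 Tbpl2-/- replicate 1 and, at −0.07, without P7 Tbpl2-/- replicate 2), Hsf1 in WT with age (−0.021 to 0.19, negative without P7 WT replicate 2 and, at −0.0037, without P14 WT replicate 2) and the Bnc1 interaction (−0.0072 to 0.28, negative without P7 WT replicate 1). Where no other value is named, the cause was not tested. The lowest count of any of the 9 genes in a library was 2341. Within each P14 genotype, pools with more RNA on their labels had fewer counts of Dppa3 and Hsf1 and more of Bnc1, Smarca4 and Trim24. Npm2, Zfp57, Ctcf and Uchl1 had no such order shared by both P14 genotypes. In P7 WT, of the genes with such an order only Smarca4 kept it. The part of the RNA amount in the results was not tested. Reads are not independent molecules here, and the sources of the spread between pools were not tested.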
